A study of Homo sapiens with 12 samples.

Results

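The genes described here are 9 genes of the mesenchymal transition program: the transcription factors ZEB1, ZEB2, SNAI1, SNAI2 and TWIST1, the cadherins CDH2 and CDH3, and the structural genes VIM and FN1. They were chosen by name, with earlier results of these data known. Each has 1 row in each of the 2 count tables, which share 38997 named features. RNA was sequenced from 92.1 and MP38, established human uveal melanoma cell lines, after 72 h with VE-822 or with DMSO, the solvent. VE-822 (berzosertib) inhibits ATR, the kinase that responds to stalled DNA replication. Its dose was set in each line to leave about 40% of cells viable and is not given in the labels, so dose and line cannot be told apart. The groups were 92.1 with VE-822, 92.1 with DMSO, MP38 with VE-822 and MP38 with DMSO, with 3 libraries each. Nothing in the labels tells whether libraries of 1 group stem from cultures grown apart, so p-values here measure the spread among these libraries, whether biological or technical.

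Transition factors of the ZEB and SNAI families are zinc finger repressors that bind E-box sequences with the core CACCTG, classically in the promoter of CDH1, which encodes E-cadherin. TWIST1 is a helix-loop-helix factor of the same program, and cells that pass through it typically exchange E-cadherin for N-cadherin (CDH2), and gain the intermediate filament protein vimentin (VIM) and the matrix protein fibronectin (FN1). Melanocytes come from the neural crest, and in cutaneous melanoma ZEB2 and SNAI2 are known as factors of the pigmented state, while ZEB1 and TWIST1 mark the dedifferentiated, invasive state.

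Total counts were 112374503 to 137664800 per library in 92.1 and 54415628 to 63638976 in MP38. Melanocyte markers were present in both lines: 8 genes, among them PMEL, MLANA, TYR and SOX10, summed to 19900 to 21500 CPM (read counts brought to 1 library total by TMM scaling over all 12 libraries) in 92.1 and 4280 to 5290 CPM in MP38. S100B was the exception, at 0.0726 to 0.212 CPM on average in the groups of 92.1. The 8 fibroblast markers summed to at most 9 CPM in any library, the 5 leukocyte markers to at most 1.08 and the 4 endothelial markers to at most 3.64. Markers of epithelial cells summed to 1.43 to 3.58 CPM in 92.1 and 49.5 to 66 CPM in MP38, where KRT18 and KRT8 made up most of the sum. DCN, CDH5 and KRT19 had no count in any DMSO library of 92.1, and DCN had none in any DMSO library of MP38. The third DMSO library of 92.1 stood apart. Its counts differed from those of the other DMSO libraries of 92.1 with a chi-square of 82 and 82.6 per gene, against 2.3 to 7.45 for every other pair of libraries of a group, and the tests of the 9 genes and the counts of listed genes called are given with and without it. For a single gene of a list, the test without it is given where the call or sign changed.

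In the DMSO libraries SNAI2, TWIST1 and CDH3 were higher in 92.1 than in MP38, and ZEB1, SNAI1, CDH2, VIM and FN1 were lower. Under VE-822, ZEB1 and TWIST1 fell and CDH3 and VIM rose in each line. SNAI1 rose and SNAI2 fell in 92.1, while ZEB2 rose and SNAI1 and CDH2 fell in MP38. Of these, the calls of VIM in each line, of ZEB1 in 92.1 and of SNAI1 in MP38 were lost under some alternatives, given further on. Calls are at an adjusted p under 0.05 (edgeR quasi-likelihood F test, Benjamini-Hochberg over all genes tested). On that basis 6 of the 9 genes were called in 92.1, 3 higher and 3 lower, where 39.9% of 22943 genes tested were called (20.3% higher and 19.6% lower). In MP38 7 of the 9 were called, 3 higher and 4 lower, where 52.3% of 21415 genes were called (26.9% higher and 25.4% lower). Between the DMSO libraries of the lines 8 of 9 were called, 3 higher in 92.1 and 5 lower, where 79.7% of 24958 genes were called (38.5% higher and 41.2% lower). The response differed between the lines for 5 of 9 genes, where 40.9% of 24958 genes were called (22.1% higher and 18.8% lower), with 3 of the 5 higher in 92.1 and 2 lower. The VE-822 and DMSO libraries did not overlap for 6 of the 9 genes in 92.1, against 52.9% of all genes, and for 8 in MP38, against 58.7%; the DMSO libraries of the lines did not overlap for 8, against 80%. Without the third DMSO library of 92.1, 7 of the 9 were called in 92.1, where 55.7% of 23816 genes were called. For the genes whose values without it are not given further on, the log2 fold change in 92.1 was then -0.23 for ZEB1, 1.499 for SNAI1, -0.68 for SNAI2, 0.51 for CDH3, 0.22 for VIM and 0.01 for FN1, with the same calls as with all libraries. Between the DMSO groups it was then -2.18 for ZEB1, -4.46 for SNAI1, 3.00 for SNAI2, 2.56 for TWIST1, -5.56 for CDH2, 4.56 for CDH3, -0.58 for VIM and -0.65 for FN1, all called as before. The difference between the responses was 0.67 for ZEB1, 1.695 for SNAI1 and -0.53 for SNAI2, called as before, and -0.02 for TWIST1, 0.075 for VIM and 0.11 for FN1, again without a call. A call was common among all genes in each of these comparisons. The comparison between lines uses the same DMSO libraries as the comparisons with VE-822, so these results are not independent of each other.

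**Figure D1:**
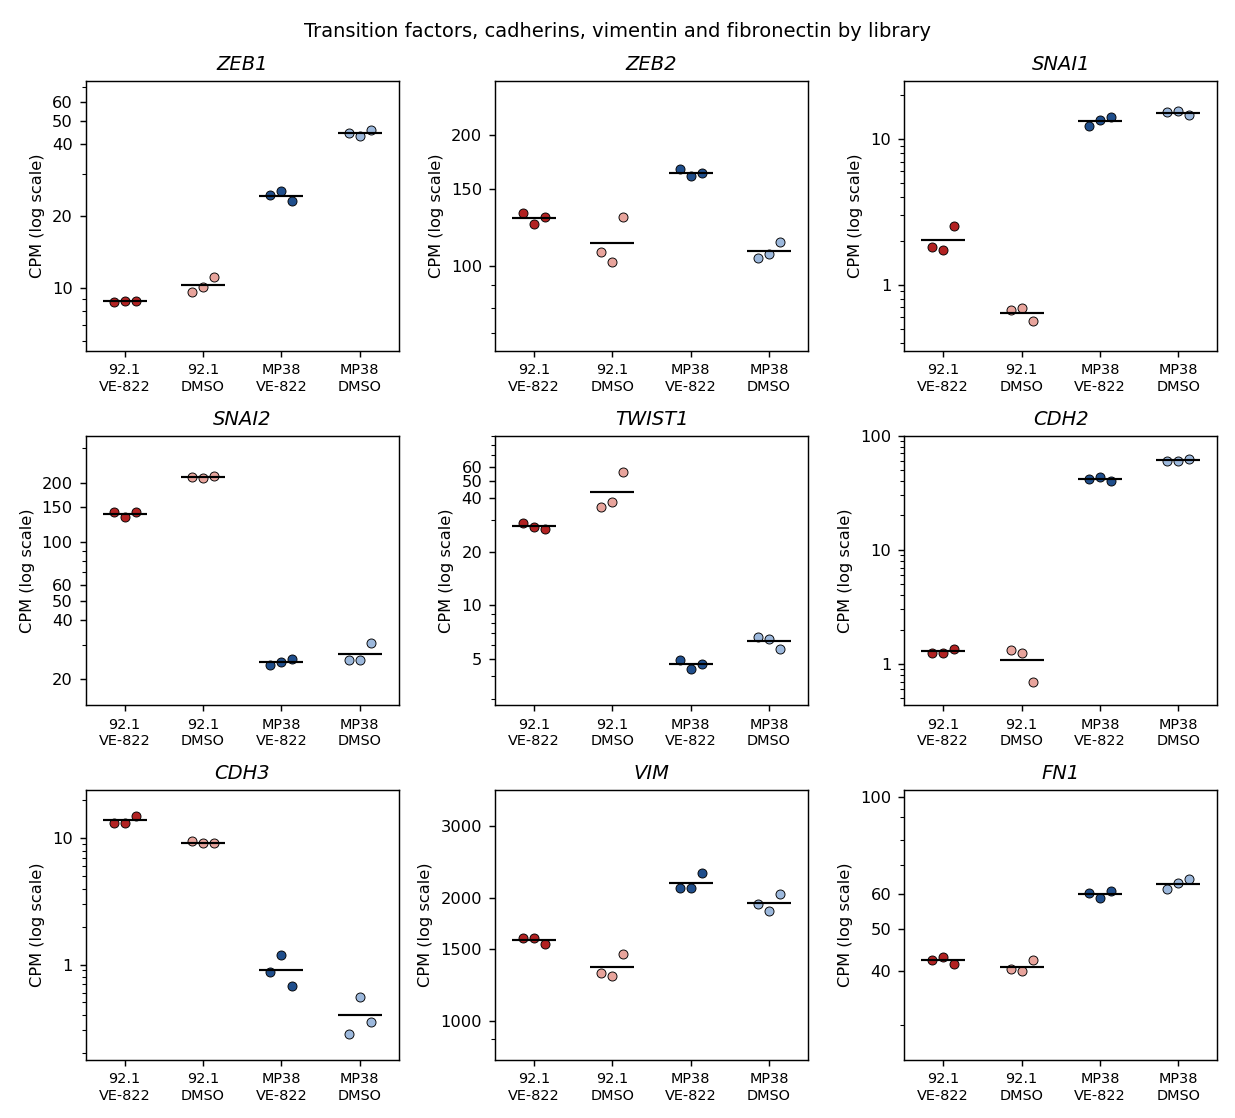
CPM of each of the 9 genes in every library, on log scales, with 92.1 VE-822, 92.1 DMSO, MP38 VE-822 and MP38 DMSO from left to right; points are libraries and bars are means of 3. SNAI2, TWIST1 and CDH3 lie higher in 92.1 and ZEB1, SNAI1 and CDH2 lie higher in MP38 in every library, while ZEB2 is at 102 to 129 CPM in the DMSO libraries of 92.1 and at 104 to 114 CPM in those of MP38.

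ZEB1 (ENSG00000148516.23, chr10:31318495-31529814) was the factor that fell most in MP38. It had 24.5, 25.6 and 23.3 CPM in the VE-822 libraries of MP38, against 44.9, 43.6 and 46.1 CPM in the DMSO libraries. The groups lay far apart, with a fitted log2 fold change of -0.89 ± 0.0453 (SE, n = 3 each; adjusted p 1.72e-12). In 92.1 it had 8.74, 8.83 and 8.81 CPM with VE-822 and 9.62, 10.1 and 11.1 CPM with DMSO. All 3 VE-822 libraries were below all 3 DMSO libraries, but the log2 fold change of -0.26 ± 0.0762 (adjusted p 0.0238) was smaller. This call was lost without any 1 of the VE-822 libraries of 92.1 (without library 1, 2 or 3, adjusted p 0.0802, 0.0792 and 0.0701) and when counts were scaled by library size alone (-0.19, adjusted p 0.0741). It was also lost on log2(FPKM + 0.1) (-0.17, adjusted p 0.185), on log2(FPKM + 1) (-0.10, adjusted p 0.153) and with a filter at 5 CPM (-0.17, adjusted p 0.114). A test of the difference between the responses gave 0.65 ± 0.0871 on the log2 scale (92.1 minus MP38, adjusted p 1.94e-05, called). In the DMSO libraries ZEB1 was lower in 92.1 than in MP38, by a log2 fold change of -2.13 ± 0.0629 (adjusted p 1.72e-14).

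ZEB2 (ENSG00000169554.22, chr2:144364364-144521057), the other ZEB factor, moved the opposite way in MP38. It had 166.7, 161.2 and 163.7 CPM with VE-822, against 103.9, 106.3 and 113.6 CPM with DMSO, and the groups did not overlap. It rose by a log2 fold change of 0.59 ± 0.0396 (adjusted p 1.01e-10). In 92.1 it had 132.2, 124.4 and 129.8 CPM with VE-822 and 107.7, 101.7 and 129.4 CPM with DMSO, where the third DMSO library reached the level of the VE-822 libraries. The log2 fold change of 0.15 ± 0.087 was not called (adjusted p 0.203), and without that library it was 0.23 ± 0.0357 and called (adjusted p 2.1e-05), as it was in the fit of all 12 libraries (0.19, adjusted p 0.0388). The response was smaller in 92.1 than in MP38, by -0.41 ± 0.0993 (adjusted p 0.00335) with all libraries and by -0.35 ± 0.0562 (adjusted p 8.41e-06) without it. Between the DMSO libraries of the lines ZEB2 was not called, at 0.07 ± 0.0703 (adjusted p 0.401), and the sign of that value flipped to -0.15 when counts were scaled by library size alone and to -0.04 without the third DMSO library of 92.1. Scaling by library size alone also moved the median of all genes in that comparison to -0.26, against -0.05 with TMM.

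Set per feature length, 26111 bases for ZEB2 and 8650 for ZEB1, the 2 ZEB factors changed places in MP38. The ratio of ZEB2 to ZEB1 was 2.25, 2.09 and 2.33 in the VE-822 libraries of MP38, against 0.767, 0.808 and 0.816 in the DMSO libraries. Per length, ZEB2 was thus the lower of the pair in every DMSO library and the higher in every VE-822 library. By CPM it was the higher in every library, so the order depends on the lengths used, while the rise of the ratio does not. In 92.1, where ZEB2 was the higher in all 6 libraries, the ratio was 5.01, 4.66 and 4.88 with VE-822 and 3.71, 3.35 and 3.85 with DMSO, again without overlap. ZEB2-AS1, an antisense transcript that overlaps ZEB2 and is known to raise ZEB2 protein by retaining an intron in its leader, averaged 4.63 ± 0.206 CPM with VE-822 and 1.87 ± 0.27 CPM with DMSO in 92.1 (SD, n = 3 each). In MP38 it averaged 0.758 ± 0.0511 CPM with VE-822 and 0.376 ± 0.0417 CPM with DMSO. It rose in each line, by a log2 fold change of 1.27 ± 0.124 (adjusted p 9.17e-05) in 92.1 and 1.00 ± 0.244 (adjusted p 0.0017) in MP38. ZEB1-AS1, the antisense transcript that overlaps ZEB1, fell in MP38, by -0.33 ± 0.101 (adjusted p 0.00995), and was at -0.36 ± 0.191 in 92.1 without a call (adjusted p 0.173). Whether counting used strand is not given in the sources used here, so reads of a gene and its antisense partner cannot be told apart, and the counts of each are uncertain to that extent.

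**Figure D2:**
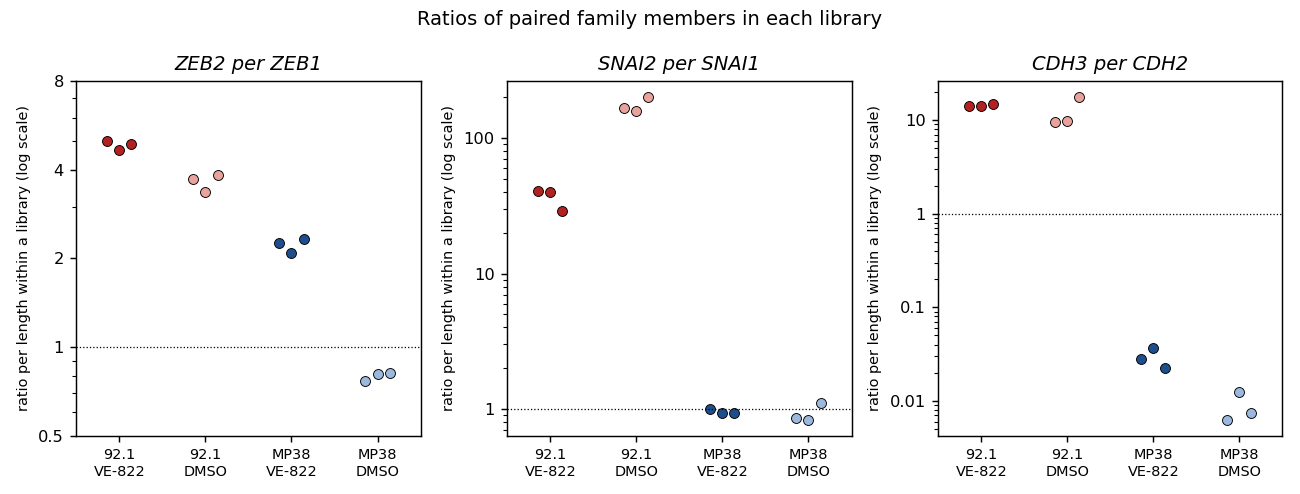
Ratio of ZEB2 to ZEB1, of SNAI2 to SNAI1 and of CDH3 to CDH2, per length, in each library, on log scales, with 92.1 VE-822, 92.1 DMSO, MP38 VE-822 and MP38 DMSO from left to right; the dotted line marks equal levels. ZEB2 per ZEB1 lies above equal in the MP38 VE-822 libraries (2.09 to 2.33) and below it in the MP38 DMSO libraries (0.767 to 0.816).

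The miR-200 family is the best known brake on both ZEB factors, and its seeds are shown because ZEB1 and ZEB2 hold matches to both of them. In the mature sequences from RefSeq (GRCh38.p14) the capitals mark the seed, bases 2 to 8. The first 3 share the seed AAUACUG and the other 2 share AACACUG.
miR-200b-3p: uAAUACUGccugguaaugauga
miR-200c-3p: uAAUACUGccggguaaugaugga
miR-429: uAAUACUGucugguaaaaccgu
miR-200a-3p: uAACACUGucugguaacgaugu
miR-141-3p: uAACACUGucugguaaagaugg
In the 3′ UTR of the GENCODE 29 transcript with the longest coding sequence, ZEB1 held 6 matches to the first seed, which read CAGUAUU, and 3 to the second, which read CAGUGUU, in 2549 bases. ZEB2 held 5 and 4 in 5370 bases. FN1 held 2 matches to CAGUAUU and none to CAGUGUU in 1101 bases, and SNAI1, TWIST1, CDH2, CDH3 and VIM held neither. Of 19113 genes, 14.1% held at least 1 CAGUAUU and 15.9% at least 1 CAGUGUU. For each kind, the match nearest to the stop codon is given with its surroundings, the match in capitals.
ZEB1 site 1: cauuguuuuaucuuauCAGUAUUaucacuc
ZEB1 site 2: gcaaaaucaucagaauCAGUGUUugugauu
ZEB2 site 1: ccgcacuaccauacauCAGUAUUuuuauua
ZEB2 site 2: augcaaaaauuuuguaCAGUGUUaaggccu
These matches start at positions 369 and 782 of the ZEB1 UTR and 392 and 208 of the ZEB2 UTR, counted from its first base. Libraries of poly(A) RNA do not measure mature miRNAs. MIR200CHG, the host transcript of miR-200c and miR-141, had at most 8 counts in any library of 92.1 and at most 1 in any library of MP38.

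ZEB1 was also the only one of the 5 genes with a RefSeq promoter window (ZEB1, ZEB2, CDH2, VIM and FN1) that held the E-box core CACCTG, which reads CAGGTG on the other strand. Each window runs from 250 bases before to 50 bases after an annotated start. ZEB1 held 4 matches in 2 of its 7 windows, while ZEB2 had 1 window, CDH2 2, VIM 1 and FN1 1, with no match. Of 35116 windows of all genes, 20.6% held at least 1. ZEB1 had the most windows of the 5 genes and thus the most places for a match. The 4 matches are printed on the plus strand (GRCh38.p14), with the core in capitals.
chr10:31318348-31318377: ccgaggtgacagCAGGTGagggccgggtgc
chr10:31318966-31318995: ccccaccaCACCTGaggaaaacttttccct
chr10:31319119-31319148: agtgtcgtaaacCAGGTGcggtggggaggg
chr10:31319236-31319265: tggcggatggcccCAGGTGtaagcgcagaa
From the annotated start of its window, the first lies at position -57 and the others, which share another window, at -242, -85 and 33. A match is a run of letters, not a measured binding site.

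SNAI1 (ENSG00000124216.4, chr20:49982980-49988886) had the largest response of the 9 genes in 92.1. It had 1.82, 1.74 and 2.53 CPM in the VE-822 libraries of 92.1, against 0.671, 0.693 and 0.565 CPM in the DMSO libraries, from 224 to 278 and 65 to 77 counts. Every VE-822 library was above every DMSO library, with a log2 fold change of 1.62 ± 0.187 (adjusted p 0.000238). In MP38 it had 12.2, 13.6 and 14.2 CPM with VE-822 and 15.2, 15.6 and 14.5 CPM with DMSO. The groups did not overlap but lay close, and the log2 fold change of -0.19 ± 0.0627 was called (adjusted p 0.0149). That call was lost in the fit of all 12 libraries (-0.18, adjusted p 0.209), without the second DMSO library (-0.17, adjusted p 0.0642) and without the first VE-822 library (-0.13, adjusted p 0.105). The difference between the responses was 1.83 ± 0.184 (adjusted p 9.03e-07). Even with VE-822, SNAI1 in 92.1 was below its level in any MP38 library. Among the DMSO libraries it was lower in 92.1 by a log2 fold change of -4.55 ± 0.139 (adjusted p 2.53e-14).

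SNAI2 (ENSG00000019549.13, chr8:48917598-48921740), which encodes Slug, a factor of neural crest migration and of melanocyte development, fell in 92.1, where SNAI1 rose. It had 142.6, 134.2 and 141.8 CPM with VE-822 in 92.1, against 215.5, 212.4 and 218.1 CPM with DMSO. The groups were far apart and each was tight, with a log2 fold change of -0.66 ± 0.0463 (adjusted p 1.24e-05). In MP38 it had 23.5, 24.5 and 25.3 CPM with VE-822 and 25.0, 25.0 and 30.6 CPM with DMSO, so that the groups overlapped and the third DMSO library was the highest. There a log2 fold change of -0.15 ± 0.0649 was not called (adjusted p 0.067). It was called without the first or second DMSO library or the third VE-822 library of MP38 (-0.20, -0.20 and -0.17, with adjusted p 0.0241, 0.027 and 0.0461), with no filter (adjusted p 0.0208) and by library size alone (-0.18, adjusted p 0.0218). The responses differed by -0.49 ± 0.0937 (92.1 minus MP38, adjusted p 0.000558). In the DMSO libraries SNAI2 was 8.01-fold higher in 92.1 than in MP38 (log2 3.00 ± 0.0704, adjusted p 1.01e-15).

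Per length, SNAI2 outweighed SNAI1 in 92.1 by a ratio of 40.8, 40.1 and 29.1 in the VE-822 libraries and of 167, 159 and 201 in the DMSO libraries. The ratio was thus lower in every VE-822 library of 92.1, as SNAI1 rose and SNAI2 fell. In MP38 the pair stood near parity throughout, at 1, 0.941 and 0.929 with VE-822 and 0.853, 0.835 and 1.1 with DMSO.

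TWIST1 (ENSG00000122691.13) fell in each line. It had 29.1, 27.5 and 26.9 CPM in 92.1 with VE-822, against 35.5, 38.2 and 56.3 CPM with DMSO. All VE-822 libraries were lower than all DMSO libraries, and the third DMSO library was well above the other DMSO libraries. The fitted change was -0.68 ± 0.156 on the log2 scale (adjusted p 0.00856), and without that library it was -0.47 ± 0.0424 (adjusted p 2.77e-08). In MP38 it had 4.95, 4.40 and 4.66 CPM with VE-822 and 6.64, 6.51 and 5.72 CPM with DMSO, again without overlap, for a log2 fold change of -0.44 ± 0.0889 (adjusted p 0.000294). The difference between the responses, -0.21 ± 0.196, was not called (adjusted p 0.423). TWIST1 was 6.89-fold higher in 92.1 than in MP38 among the DMSO libraries (log2 2.78 ± 0.139, adjusted p 1.45e-11). The feature spans chr7:19020991-19117636 and overlaps AC003986.6, a long noncoding RNA with a mean of 211 counts in 92.1 and 4.5 in MP38.

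CDH2 (ENSG00000170558.10, chr18:27932879-28177946), which encodes N-cadherin, was the gene that differed most between the lines. It had 1.323, 1.251 and 0.695 CPM in the DMSO libraries of 92.1, against 59.9, 60.4 and 62.8 CPM in those of MP38, a log2 fold change of -5.81 ± 0.137 (adjusted p 1.03e-15). In MP38 it fell with VE-822, to 41.9, 43.6 and 40.3 CPM, below all the DMSO libraries, with a log2 fold change of -0.55 ± 0.041 (adjusted p 5.42e-10). In 92.1 it had 1.254, 1.242 and 1.365 CPM with VE-822, from 150 to 161 counts, of which 1 library lies above the range of the DMSO libraries. The log2 fold change of 0.21 ± 0.225 was not called (adjusted p 0.506) and was -0.07 ± 0.143 without the third DMSO library (adjusted p 0.719), in which CDH2 had 80 counts against 138 and 139 in the other two. The responses differed by 0.79 ± 0.188 (adjusted p 0.00314), and by 0.50 ± 0.112 (adjusted p 0.00058) without that library.

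CDH3 (ENSG00000062038.15, chr16:68636189-68727468), which encodes P-cadherin, an adhesion protein of basal epithelia and of the retinal pigment epithelium, rose in each line. It had 13.3, 13.2 and 15.1 CPM with VE-822 in 92.1, against 9.49, 9.14 and 9.11 CPM with DMSO, for a log2 fold change of 0.55 ± 0.0756 (adjusted p 0.000626). In MP38 it was near the limit of these libraries, at 0.868, 1.19 and 0.680 CPM with VE-822 and 0.282, 0.558 and 0.350 CPM with DMSO. The groups did not overlap in either line. The log2 fold change in MP38, 1.19 ± 0.28 (adjusted p 0.0012), rests on 41 to 76 counts with VE-822 and 19 to 37 with DMSO. The difference between the responses, -0.62 ± 0.266, was not called (adjusted p 0.0741). It was called without the third DMSO library of 92.1 (-0.68, adjusted p 0.0276), without the second DMSO library of MP38 (-0.99, adjusted p 0.0102) and without the third VE-822 library of MP38 (-0.84, adjusted p 0.0189), and with DESeq2 (-0.67, adjusted p 0.0147). In the DMSO libraries CDH3 was 23.3-fold higher in 92.1 (log2 4.54 ± 0.178, adjusted p 6.27e-13). Its overlapping noncoding neighbour RP11-615I2.2 had a mean of 171 counts in 92.1 and 4.5 in MP38.

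The 2 cadherins were nearly exclusive of each other by line. Per length, CDH3 stood to CDH2 as 14.3, 14.3 and 14.9 in the VE-822 libraries of 92.1 and as 9.63, 9.81 and 17.6 in the DMSO libraries, where the groups overlap through the third DMSO library. In MP38 the ratio was 0.0278, 0.0365 and 0.0227 with VE-822 and 0.00631, 0.0124 and 0.00748 with DMSO, and every VE-822 library was above every DMSO library. In bulk RNA, fewer cells with a transcript and less of it per cell cannot be told apart, so the ratios do not say whether single cells carried both cadherins.

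VIM (ENSG00000026025.16, chr10:17228241-17237593) was the most abundant of the 9 genes per length in all 4 groups. It had 1598, 1597 and 1539 CPM in 92.1 with VE-822 and 1309, 1284 and 1459 CPM with DMSO. It had 2116, 2115 and 2298 CPM in MP38 with VE-822 and 1927, 1859 and 2039 CPM with DMSO. Neither pair of groups overlapped, and the changes were small: the log2 fold change was 0.19 ± 0.0614 (adjusted p 0.0401) in 92.1 and 0.16 ± 0.0464 (adjusted p 0.0079) in MP38. The call in 92.1 was lost when either of the first 2 DMSO libraries or any VE-822 library was left out (adjusted p 0.0817 to 0.149), and with RLE size factors (adjusted p 0.0526). The call in MP38 was lost without the second DMSO library (adjusted p 0.0764) and on log2(FPKM + 0.1) and log2(FPKM + 1) (adjusted p 0.0662 and 0.0684). Between the lines the response did not pass the test of a difference (0.06 ± 0.0754, adjusted p 0.557). VIM was lower in 92.1 than in MP38 among the DMSO libraries, by -0.52 ± 0.0534 (adjusted p 1.51e-07). VIM-AS1, which overlaps it on the opposite strand, rose in MP38 by a log2 fold change of 0.83 ± 0.0882 (adjusted p 9.78e-08) and was at -0.13 ± 0.233 in 92.1 (adjusted p 0.699), and at 0.16 ± 0.149 (adjusted p 0.378) without the third DMSO library.

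FN1 (ENSG00000115414.21, chr2:215360440-215436073) had the smallest fitted change of the 9 genes in each line. It had 42.4, 43.1 and 41.6 CPM with VE-822 in 92.1, against 40.4, 40.0 and 42.3 CPM with DMSO, in overlapping groups, for a log2 fold change of 0.01 ± 0.0513 (adjusted p 0.882). In MP38 it had 60.3, 58.9 and 61.1 CPM with VE-822, against 61.6, 63.7 and 65.0 CPM with DMSO. All 3 VE-822 libraries were the lower ones, yet the log2 fold change of -0.09 ± 0.0387 was not called (adjusted p 0.0651); it was called without the third VE-822 library (-0.10, adjusted p 0.0393), by library size alone (-0.13, adjusted p 0.0107) and with a filter at 5 CPM (-0.10, adjusted p 0.0177). The difference between the responses, 0.13 ± 0.0617, was not called (adjusted p 0.112), and was called by library size alone (0.20, adjusted p 0.0128), with a filter at 5 CPM (0.25, adjusted p 0.00189) and on both log2 FPKM scales (adjusted p 0.0228 and 0.023). Between the DMSO libraries it was lower in 92.1, by -0.63 ± 0.0438 (adjusted p 1.03e-09).

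**Figure D3:**
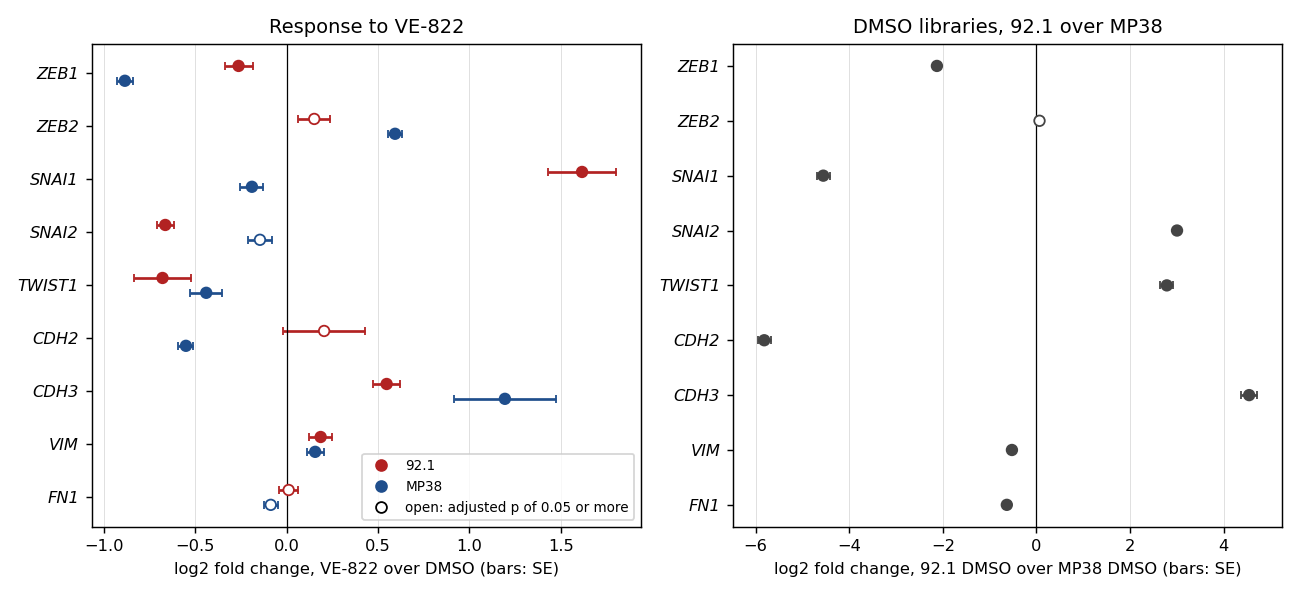
Left, log2 fold change of VE-822 over DMSO for the 9 genes in 92.1 (red) and MP38 (blue); right, log2 fold change of 92.1 DMSO over MP38 DMSO. Bars are SE, and open points had an adjusted p of 0.05 or more; SNAI1 stands at 1.62 in 92.1 and -0.19 in MP38, and ZEB1 at -0.26 and -0.89 in the same lines.

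Compared by FPKM (counts scaled for feature length and library total, as deposited), the order of the genes differed between the lines. With DMSO, 92.1 had VIM at 242 ± 17.5, SNAI2 at 61.0 ± 0.917, TWIST1 at 20.2 ± 5.3, ZEB2 at 4.02 ± 0.525, FN1 at 2.21 ± 0.0688, CDH3 at 1.34 ± 0.0297, ZEB1 at 1.10 ± 0.0854, SNAI1 at 0.350 ± 0.0369 and CDH2 at 0.118 ± 0.0372 FPKM (SD, n = 3). No neighbours in that order overlapped. With VE-822 the order in 92.1 was the same except that SNAI1, at 1.13 ± 0.265, stood beside ZEB1, at 0.965 ± 0.0225, and these 2 overlapped. With DMSO, MP38 had VIM at 405 ± 17.5, SNAI1 at 9.56 ± 0.388, SNAI2 at 8.85 ± 1.05, CDH2 at 7.68 ± 0.188, ZEB1 at 5.60 ± 0.134, ZEB2 at 4.46 ± 0.205, FN1 at 3.98 ± 0.113, TWIST1 at 3.40 ± 0.275 and CDH3 at 0.067 ± 0.025 FPKM. The only overlapping neighbours were SNAI1 and SNAI2. With VE-822 these 2 overlapped again, ZEB2 at 6.56 ± 0.18 stood above CDH2 at 5.10 ± 0.28, and ZEB1 at 2.96 ± 0.185 stood below FN1 at 3.65 ± 0.0569.

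**Figure D4:**
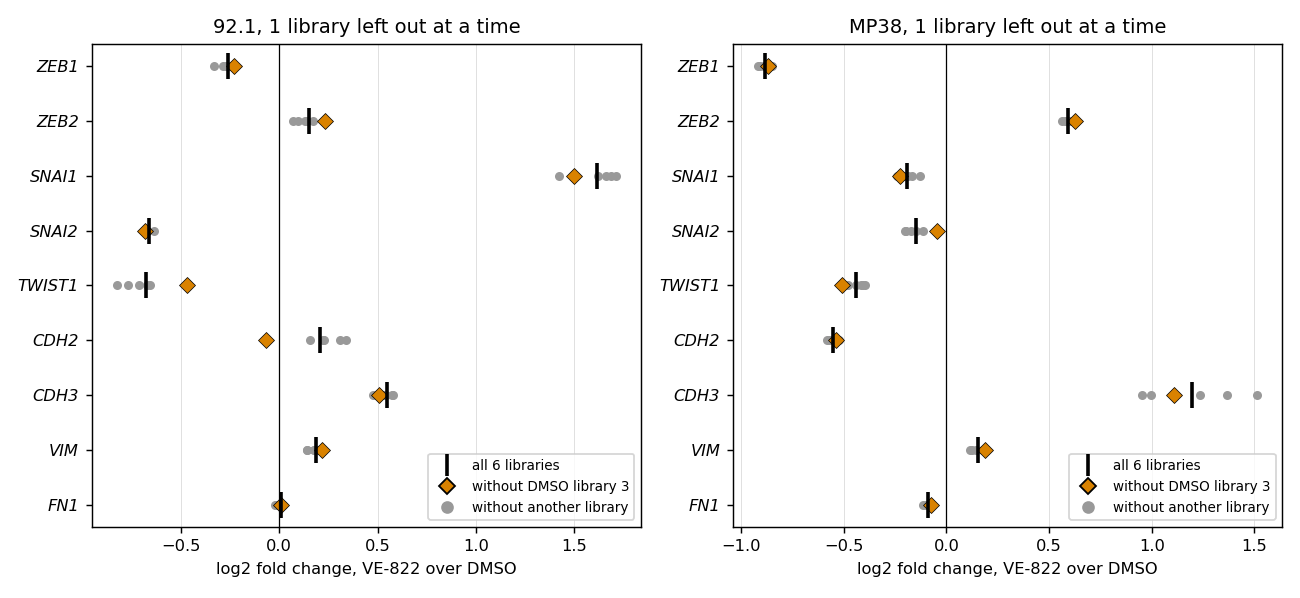
Log2 fold change of VE-822 over DMSO for the 9 genes with all 6 libraries of a line (black bars) and with 1 library left out (grey points, orange diamonds for the third DMSO library), in 92.1 on the left and MP38 on the right. Without the third DMSO library of 92.1, CDH2 moves to -0.07, TWIST1 to -0.47 and ZEB2 to 0.23.

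The counts of the gene lists that follow stand beside a share of all genes called of 39.9% in 92.1 (20.3% higher and 19.6% lower), of 55.7% in 92.1 without the third DMSO library, and of 52.3% in MP38 (26.9% higher and 25.4% lower). Of 11 listed E-box factors that pair with TWIST1 and other factors of the same program, 9 were tested in 92.1, of which 2 rose and 5 fell, with and without the third DMSO library (median log2 fold change with all libraries -0.34, against 0.03 over all genes, of which 19.6% fell). In MP38 7 were tested, of which 1 rose and 5 fell (median -0.23, against -0.01 over all genes, of which 25.4% fell). TCF12, a helix-loop-helix partner of TWIST1, averaged 124 ± 3.86 CPM with VE-822 and 173 ± 2.95 CPM with DMSO in 92.1, and in MP38 104 ± 2.45 CPM with VE-822 and 130 ± 2.63 CPM with DMSO. It fell in each line, by -0.52 ± 0.045 (adjusted p 4.54e-05) in 92.1 and -0.34 ± 0.0365 (adjusted p 1.47e-07) in MP38. TCF4, another such partner, fell in MP38 by -0.57 ± 0.0806 (adjusted p 4.8e-06) and had at most 6 counts in any library of 92.1. The lines also divided by factor here: in the DMSO libraries PRRX1, a mesenchymal homeobox factor, averaged 0.376 ± 0.0351 CPM in 92.1 and 104 ± 2.96 CPM in MP38. SOX9, a neural crest factor, averaged 7.52 ± 0.56 CPM in 92.1 and 0.0643 ± 0.00957 CPM in MP38. TWIST2, the close relative of TWIST1, had 659 to 783 counts in the DMSO libraries of 92.1 and none in those of MP38.

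The chromatin partners through which ZEB and SNAI factors repress genes fell in 92.1: of 8 listed, 7 fell and none rose (median -0.27, against 0.03 over all genes, of which 19.6% fell), and all 8 fell without the third DMSO library. EZH2, the methyltransferase of the Polycomb complex, averaged 38.6 ± 0.983 CPM with VE-822 and 79.8 ± 10.6 CPM with DMSO in 92.1, a log2 fold change of -1.09 ± 0.0889 (adjusted p 3.28e-05). The deacetylase gene HDAC2 fell by -0.49 ± 0.0512 (adjusted p 0.000142). In MP38 3 of the 8 fell and 1 rose (median -0.02, against -0.01), and the gene that rose was EZH2, at 98.3 ± 2.36 CPM with VE-822 and 66.9 ± 0.619 CPM with DMSO (log2 fold change 0.55 ± 0.0369, adjusted p 1.29e-10). The difference between the lines was called for EZH2 (-1.60 ± 0.101, adjusted p 4.78e-09) and for HDAC2 (-0.49 ± 0.0652, adjusted p 1.7e-05). Among those that fell in each line was the ZEB corepressor gene CTBP2, by -0.27 ± 0.0463 (adjusted p 0.00192) in 92.1 and -0.23 ± 0.0403 (adjusted p 6.96e-05) in MP38.

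On the epithelial side of the program, ESRP1 rose in each line. It encodes a splicing regulator that ZEB1 is known to repress in epithelial cancers. It averaged 98.9 ± 2.04 CPM with VE-822 and 51.1 ± 11 CPM with DMSO in 92.1, and in MP38 9.76 ± 1.11 CPM with VE-822 and 4.61 ± 0.116 CPM with DMSO. The log2 fold change was 0.92 ± 0.129 (adjusted p 0.0007) in 92.1 and 1.07 ± 0.0867 (adjusted p 1.89e-09) in MP38. Of 9 listed regulators of the epithelial state, 4 of 8 tested rose in 92.1 and none fell (median 0.75, against 0.03 over all genes), and 1 of 3 tested rose in MP38 (median 0.06, against -0.01). Among all genes 20.3% rose in 92.1 and 26.9% in MP38, and without the third DMSO library 5 of these regulators rose and 1, OVOL2, fell in 92.1 (-0.50, adjusted p 0.0486). The other 3 that rose in 92.1, GRHL2, ELF3 and OVOL1, had at most 40 counts in any library of 92.1. In its DMSO libraries they had 1 to 6, 2 to 10 and 4 to 11 counts, so they passed the count filter only through VE-822. A fall of these 3 was thus hardly possible, and the count and median that include them are not evidence about the list. CDH1 itself had 27 to 38 counts with VE-822 and 20 to 81 with DMSO in 92.1 (-0.56 ± 0.498, adjusted p 0.406, and 0.32 ± 0.332, adjusted p 0.433, without the third DMSO library). In MP38 CDH1 had 19 to 44 counts with VE-822 and 0 to 12 with DMSO, and it rose by 2.56 ± 0.54 (adjusted p 0.000445) to 0.509 ± 0.203 CPM, a level at which E-cadherin mRNA was hardly present in either group. CDH1 passed the count filter in MP38 only through VE-822, so a fall was hardly possible there. Of 15 epithelial junction and keratin genes, 5 of 10 tested rose and none fell in 92.1, and 3 rose and 4 fell of 10 tested in MP38, where 39.9% and 52.3% of all genes were called in 92.1 and in MP38. Without the third DMSO library 6 rose and none fell in 92.1. RAB25, which rose in 92.1, had 2 to 5 counts with DMSO and 18 to 26 with VE-822. It too passed the count filter only through VE-822. TJP3, a tight junction scaffold gene, rose in 92.1 (1.79 ± 0.173, adjusted p 8.72e-05), at 1.76 ± 0.258 CPM with VE-822 and 0.493 ± 0.0615 CPM with DMSO. KRT8 fell in MP38 (-0.62 ± 0.0677, adjusted p 1.42e-07).

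Among 17 other cadherins, 3 of 8 tested rose in 92.1 and none fell, and 3 rose and 4 fell of 9 tested in MP38, where 39.9% of all genes were called in 92.1 and 52.3% in MP38. CDH24, a classical type II cadherin, averaged 4.26 ± 0.444 CPM with VE-822 and 9.33 ± 0.597 CPM with DMSO in MP38 (log2 fold change -1.14 ± 0.0859, adjusted p 6.61e-10). CDH19, a cadherin of the Schwann cell and neural crest lineage, averaged 104 ± 3.57 CPM with VE-822 and 127 ± 3.39 CPM with DMSO in MP38 and fell by -0.31 ± 0.0389 (adjusted p 1.23e-06). In 92.1 CDH19 averaged 156 ± 2.94 CPM with VE-822 and 108 ± 33.1 CPM with DMSO, without a call (0.49 ± 0.175, adjusted p 0.0545). Without the third DMSO library it was called, at 0.74 ± 0.0295 (adjusted p 3.09e-13), and of these cadherins 6 rose and 1 fell in 92.1. CDH10 and CDH12, which rose in 92.1, had at most 29 counts in any library of that line. With DMSO CDH10 had 3 counts in each library and CDH12 had 1 to 3, so both passed the count filter only through VE-822. The same holds for CDH1 in MP38. A fall of these genes was thus hardly possible, and the counts of rises are not evidence about the list. CDH4, the third that rose in 92.1, changed by 0.43 ± 0.14 (adjusted p 0.0391).

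The catenins, which tie cadherins to actin, changed with opposite signs at CTNNB1, the gene of beta-catenin. It fell in 92.1 by -0.21 ± 0.0559 (adjusted p 0.0185) and rose in MP38 by 0.47 ± 0.0399 (adjusted p 3.86e-09), and the difference was called (-0.65 ± 0.0696, adjusted p 1.93e-06). Of 10 listed genes 1 rose and 2 fell of 9 tested in 92.1, and 4 rose and 4 fell of 9 tested in MP38, beside 39.9% of all genes called in 92.1 and 52.3% in MP38. In 92.1 2 rose and 3 fell without the third DMSO library. PKP4, a p120-type catenin gene, fell in each line, by -0.84 ± 0.0577 (adjusted p 1.19e-05) in 92.1 and -0.48 ± 0.0379 (adjusted p 1.25e-09) in MP38.

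Receptors of fibronectin are mostly integrins. ITGA9, an integrin chain that binds fibronectin's spliced EIIIA segment, averaged 15.8 ± 0.428 CPM with VE-822 and 26.7 ± 2.55 CPM with DMSO in 92.1, and in MP38 16.6 ± 0.722 CPM with VE-822 and 35.6 ± 1.41 CPM with DMSO. It fell by -0.80 ± 0.079 (adjusted p 9.63e-05) in 92.1 and -1.11 ± 0.0497 (adjusted p 2.09e-13) in MP38. ITGA5, the alpha chain of the classical fibronectin receptor, rose in MP38, at 114 ± 2.49 CPM with VE-822 and 64.9 ± 4.82 CPM with DMSO (0.80 ± 0.0461, adjusted p 1.03e-11). In 92.1 it was at 0.06 ± 0.083 (adjusted p 0.591), and at 0.14 ± 0.0321 and called (adjusted p 0.00123) without the third DMSO library, and the responses differed by -0.71 ± 0.102 (adjusted p 4.02e-05). ITGB3, the beta chain of a receptor for fibronectin and vitronectin, averaged 0.381 ± 0.091 CPM in the DMSO libraries of 92.1 and 207 ± 17.2 CPM in those of MP38. Of the 9 receptor genes 1 rose and 3 fell of 6 tested in 92.1, and 3 rose and 3 fell of 7 tested in MP38, where calls covered 39.9% of all genes in 92.1 and 52.3% in MP38. Leaving out the third DMSO library gave 2 that rose and 3 that fell in 92.1.

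Of 9 other intermediate filament and linker genes tested between the DMSO groups, 1 was higher in 92.1 and 7 were lower. These counts were the same without the third DMSO library of 92.1. Among all genes 79.7% were called in that comparison. NEFL, the light neurofilament gene, had 2647 to 2843 counts in each DMSO library of MP38 and none in those of 92.1, where 12 counts were found in each VE-822 library. INA, the gene of alpha-internexin, had 1655 to 1798 counts in the DMSO libraries of 92.1 and none in those of MP38. SYNM, the gene of synemin, a partner of vimentin, averaged 63.0 ± 1.59 CPM with VE-822 and 100 ± 5.05 CPM with DMSO in MP38 (-0.68 ± 0.0417, adjusted p 2.78e-11). Of 9 such genes 5 rose and none fell of 7 tested in 92.1, and 4 rose and 3 fell of 8 tested in MP38, with 39.9% of all genes called in 92.1 and 52.3% in MP38. Among those that rose in 92.1, DES had 1 to 9 and GFAP 4 to 7 counts with DMSO. In MP38 DES had 2 to 7 and PRPH 5 to 9 counts with DMSO. These genes, and NEFL in 92.1, passed the count filter only through VE-822. Their fall was thus hardly possible, and the counts of rises are not evidence about the list. Without the third DMSO library 4 rose and 2 fell in 92.1, and those that fell were NES, the gene of nestin (-0.44, adjusted p 4.32e-09), and SYNM (-0.32, adjusted p 2.67e-06).

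TGF-beta is the best known inducer of these factors. Of 15 genes of its signalling, 7 rose and 5 fell of 14 tested in 92.1 (median 0.17, against 0.03 over all genes), and 3 rose and 6 fell of 15 in MP38 (median -0.09, against -0.01). With the third DMSO library left out, 7 rose and 6 fell in 92.1. The ligand gene TGFB1 rose in 92.1 by 0.67 ± 0.11 (adjusted p 0.00156), at 15.5 ± 0.394 CPM with VE-822 and 9.52 ± 1.55 CPM with DMSO, while the receptor gene TGFBR1 fell by -0.39 ± 0.0684 (adjusted p 0.0021). The signal transducer gene SMAD3 fell in MP38 by -0.55 ± 0.0523 (adjusted p 1.91e-08), and its response differed between the lines by 0.81 ± 0.0833 (adjusted p 1.25e-06).

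Of the 8 melanocyte markers 3 rose and 4 fell in MP38, where 52.3% of all genes were called. TYRP1 rose by 1.46 ± 0.0515 (adjusted p 4.97e-15), MLANA by 1.30 ± 0.0458 (adjusted p 4.97e-15) and PMEL by 0.64 ± 0.0394 (adjusted p 3.3e-11), and the sum of all 8 was 5250 to 5290 CPM with VE-822 and 4280 to 4460 CPM with DMSO. PMEL, the most abundant of them in MP38, averaged 2880 ± 15.9 CPM with VE-822 and 1840 ± 31.8 CPM with DMSO. MITF, the master regulator of pigment cells, fell in MP38 by -0.26 ± 0.0619 (adjusted p 0.00125). DCT averaged 421 ± 25 CPM with VE-822 and 598 ± 36.9 CPM with DMSO in MP38. SOX10 averaged 500 ± 16.5 and 597 ± 9.01 CPM there, and S100B 119 ± 8.32 and 144 ± 6.15 CPM, in the same order. In 92.1 2 of the 8 rose and 2 fell, where 39.9% of all genes were called, and 3 rose and 3 fell without the third DMSO library, when PMEL (0.08, adjusted p 0.0276) and SOX10 (-0.09, adjusted p 0.0104) were called too. Those that rose with all libraries were S100B, at 1.49 ± 0.32 (adjusted p 0.00626), and MLANA, at 0.22 ± 0.0534 (adjusted p 0.0107), and those that fell were MITF at -0.42 ± 0.0516 (adjusted p 0.000314) and DCT at -1.58 ± 0.102 (adjusted p 8.41e-06). S100B had 7 to 9 counts with DMSO in 92.1 and passed the count filter only through VE-822, so a fall was hardly possible. The summed markers of other cell types, most of them low, differed between the groups as well. Those of fibroblasts summed to 8.51 to 9 CPM with VE-822 and 5.22 to 6.40 CPM with DMSO in 92.1, and in MP38 1.62 to 2.26 CPM with VE-822 and 0.598 to 0.935 CPM with DMSO. Those of endothelial cells summed to 0.382 to 0.673 CPM with VE-822 and 0.054 to 0.104 CPM with DMSO in 92.1, and in MP38 to 2.85 to 3.64 CPM with VE-822 and 1.97 to 2.73 CPM with DMSO. Those of leukocytes summed to 1.02 to 1.08 CPM with VE-822 and 0.567 to 0.747 CPM with DMSO in 92.1, and in MP38 to 0.677 to 1.08 CPM with VE-822 and 0.563 to 0.633 CPM with DMSO. Those of epithelial cells summed to 3.07 to 3.58 CPM with VE-822 and 1.43 to 2.7 CPM with DMSO in 92.1, and in MP38 to 49.5 to 53.1 CPM with VE-822 and 54.6 to 66 CPM with DMSO. In each line these sums did not overlap between VE-822 and DMSO for any of the 4 cell types. Of all single genes tested, 52.9% did not overlap in 92.1 and 58.7% in MP38. The part of other cell types in the changes of the 9 genes was not tested.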

How the data were processed

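Poly(A) RNA was sequenced from 12 libraries, 3 for each of 4 groups. Per the submitters' processing notes, reads were handled with STAR 2.7.11a, featureCounts 2.0.6, cutadapt 4.8, MultiQC 1.7 and FastQC 0.12.1 on the GRCh38.p13 build; parameters, annotation release and strand setting are not given in the sources used here. For each line the authors deposited a table of unnormalized read counts; it lists no feature without a read in its 6 libraries. The deposited FPKM values equalled counts per length and library total within 0.0005, and were used to compare levels between genes.

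Counts were fitted in R 4.3.3 with edgeR 4.0.16 (filterByExpr with a minimum count of 10 and minimum total of 15, TMM, quasi-likelihood F test), VE-822 against DMSO in each line alone, and both between-line comparisons in 1 fit of 12 libraries over features of both tables. Benjamini-Hochberg adjustment ran over every gene tested, with calls under 0.05. The SE was taken from the F statistic. On simulated counts, in 1 draw for each comparison, the share of false calls exceeded the nominal 0.05 for 92.1, for MP38 and between the DMSO groups, most for 92.1, where a limit first set on that share was not met and was widened, so calls with an adjusted p near 0.05 are less certain than it states. Printed CPM use TMM factors of all 12 libraries, so a fold change read from them differs from the fit of 1 line by 0.04 (92.1) or 0.01 (MP38) on the log2 scale. The genes and lists were chosen with earlier results of these data known. All 9 genes are named, plus, of each list, up to 4 called genes with the smallest adjusted p per comparison. Beyond that rule, CDH1, CDH19, ITGA5, NES, SYNM, OVOL2, PMEL and SOX10 in 92.1 were added after their values were seen. So were the tests of listed genes without the third DMSO library, the ranges of counts, and the CPM of melanocyte markers in MP38. Alternatives used DESeq2 1.42.0, limma 3.58.1 on log2 FPKM with a pseudocount of 1 or 0.1, other scalings and filters, a replicate block, and each library left out. SNAI2 has no sequence printed, and the promoter table was read for 5 genes. Some items are not reported here.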

Additional observations from a re-analysis of the deposited data

Results flagged for a closer look

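The response to VE-822 differed between the lines, by a test of the difference itself, for 5 of the 9 genes, where 40.9% of all genes tested were called. Given as the log2 fold change in 92.1 minus that in MP38, the difference was 0.65 for ZEB1, which fell in both lines and further in MP38. The call of ZEB1 in 92.1 was lost when any VE-822 library of that line was left out. For SNAI1 the difference was 1.83, with a rise in 92.1 and a call lower in MP38 that was lost under some alternatives. For CDH2 it was 0.79, with a fall in MP38 and no call in 92.1, and 0.50 without the third DMSO library of 92.1. ZEB2 differed by -0.41, with a rise in MP38 and a value of 0.15 in 92.1 that was not called with all libraries. SNAI2 differed by -0.49, with a fall in 92.1 and no call in MP38. The dose of VE-822 was set for each line, so dose and line cannot be told apart in these differences. With 3 libraries in a group, no single library was tested as an outlier.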

How the results depend on the processing

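The number of the 9 genes called moved by at most 1.5 times under every alternative run: 4 to 7 in 92.1, 6 to 9 in MP38, 8 between the DMSO groups and 5 to 7 for the difference in response. Of values not from leaving out a library, 282 kept their direction and side of the threshold, 12 gained and 9 lost a call, and 9 changed sign; with 1 library left out, these were 298, 8, 11 and 7. Signs changed for values that were not called with all libraries. CDH2 in 92.1 was -0.067 without the third DMSO library, the lowest of -0.067 to 0.342 with 1 library left out. CDH3's difference in response was 0.005 on log2(FPKM + 0.1) and 0.277 on log2(FPKM + 1), where it was called (adjusted p 0.00718), a pseudocount near or above its FPKM in MP38. FN1 in 92.1 was -0.011 with DESeq2, -0.011 with RLE factors and -0.022 with no filter, and ranged over -0.022 to 0.02 with 1 library left out. VIM's difference in response ranged over -0.026 to 0.075 in the same way. ZEB2 between the DMSO groups was -0.153 by library size, -0.155 on log2(FPKM + 0.1), -0.127 on log2(FPKM + 1) and -0.11 with at least 5 CPM, and ranged over -0.039 to 0.141. The cause of these changes of sign was not tested.

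The replicate numbers did not pair the samples in MP38, where deviations of same-numbered libraries correlated at -0.007, -0.003 and -0.021. In 92.1 these correlations were 0.041, 0.066 and 0.082, and each library correlated best with its own number, so any pairing there was weak. With the replicate block, VIM in 92.1 lost its call (0.19, adjusted p 0.0572), SNAI2 in MP38 gained one (-0.14, adjusted p 0.0472), and CDH3's difference gained one (-0.62, adjusted p 0.0294). The filter at 5 CPM left no value for SNAI1 and CDH2 in 92.1 and CDH3 in MP38. Among all genes called in 92.1, 50.9% were higher, and 61.7% by library size. Depth limits CDH3 in MP38 and SNAI1 and CDH2 in 92.1, which rest on few counts.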

Other observations

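Over the 12 libraries, each of the 9 genes was set beside 10912 protein-coding genes averaging 5 CPM or more, by Pearson's r of log2(CPM + 0.5), as a description, since the points fall into 4 groups and share libraries. The highest r for ZEB1 was with ZMIZ1 (0.9961) and RNF125 (0.9959). RNF125, a ubiquitin ligase gene, averaged 80.9 CPM with VE-822 and 178 CPM with DMSO in MP38, and 11.4 CPM with VE-822 and 16.6 CPM with DMSO in 92.1. ZEB2 was most like ARFGEF2 (0.9805) and FMN1 (0.976), and SNAI1 most like UNC93B1 (0.997) and LIMK2 (0.9968). LIMK2, a kinase gene of the actin cytoskeleton, averaged 25.9 CPM with VE-822 and 15.5 CPM with DMSO in 92.1, and 94.9 CPM with VE-822 and 94.6 CPM with DMSO in MP38.

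SNAI2 was most like CS (0.998) and ATP11A (0.9978), and TWIST1 most like KLHL29 (0.9967) and GPCPD1 (0.9959). For the cadherins, the genes were TNK2 (0.9994) and ARHGAP31 (0.9993) beside CDH2, and GLMP (0.9983) and ZDHHC2 (0.997) beside CDH3. ZDHHC2, a palmitoyltransferase gene, averaged 338 CPM with VE-822 and 206 CPM with DMSO in 92.1, and 26.0 CPM with VE-822 and 17.1 CPM with DMSO in MP38. VIM was most like TAF7 (0.9927) and FCHSD1 (0.9906), and FN1 most like TBC1D5 (0.9974) and CYP27B1 (0.9974).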
